A study of Mus musculus with 41 samples.

Results

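The enzymes that break down the branched-chain amino acids were followed in newborn mice whose dams had received metformin or vehicle during pregnancy. The group was set by symbol and held 10 genes of the 19057 genes on the array, with 16 of the 34885 probes that carry 1 gene symbol. They are Bcat2, Bckdha, Bckdhb, Dbt, Ivd, Mccc1, Mccc2, Auh, Hibch and Mcee. Of these, 9 were measured in liver and in subcutaneous adipose tissue (SAT), and 7 in brain. The probe of Hibch was detected on 1 of 41 arrays, so no level is given for this gene.

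Each array held RNA of 1 C57/BL6NHsd mouse pup at postnatal day 4, hybridised to an Illumina Mouse WG-6 v2 array. Metformin, an oral glucose-lowering drug, was given by mouth to the dams through most of gestation, and control dams received vehicle. In the HFD study, dams of both treatments ate a high fat diet before and during gestation, were moved to a regular diet around birth, and their male offspring gave 6 metformin and 6 control livers and 5 metformin and 6 control SAT samples. In the earlier RD study, dams of both treatments ate a regular diet. Their offspring gave 3 metformin and 3 control livers of males, the same numbers of livers of females, and 3 metformin and 3 control whole brains of males. SAT and brain came from animals that also gave a liver, as their animal codes show. The HFD samples of each treatment carry 2 codes (10K and 3R with metformin, 1R and 1T in controls). The RD samples carry letters (E and F with metformin, B and C in controls). The labels give the meaning of neither. Pups of 1 code or letter may share a dam, and p-values that treat pups as independent may be too small.

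Leucine, isoleucine and valine share the first steps of their breakdown in mitochondria. An aminotransferase moves their amino group to a keto acid, and a large dehydrogenase complex then removes carbon dioxide in a step that cannot be reversed. Each carbon skeleton then has its own chain of enzymes, which ends in acetyl-CoA and acetoacetate for leucine, propionyl-CoA for valine, and both acetyl-CoA and propionyl-CoA for isoleucine. In adult rodents the liver is known for low aminotransferase and high dehydrogenase activity, and fat and muscle carry out much of the first step.

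All values below are log2 intensities after background correction and quantile normalization, in which probes without signal lie at the low end because of the offset. A probe was called detected where its deposited detection p was under 0.05. The share of probes detected was 30.97 to 41.6% on the livers, 29.9 to 43.4% on SAT and 43.6 to 46.1% on the brains. The labelled tissues fitted their markers. The adipocyte hormone gene Adipoq was at 13.83 to 14.76 in control SAT and was not detected on any control liver or control brain array of males, and the apolipoprotein gene Apoa1 was at 14.76 to 15.52 in HFD control livers. The SAT arrays also held skeletal muscle and brown fat RNA in unequal amounts, which is given beside the SAT results. In such tissue samples, fewer cells of a type and less RNA per cell cannot be told apart.

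In HFD livers 1 of the 9 measured breakdown enzymes passed the test, and it was lower with prenatal metformin. Mcee, the methylmalonyl-CoA epimerase that acts near the end of the valine and isoleucine routes, fell to 0.715 of its control level. In all 9 the log2 difference between metformin and control was below 0, as in 50.7% of all 10046 genes measured in liver. The 9 include Mccc1, which was not detected on any HFD liver, so its sign has no order. The median over the 9 enzymes was -0.33 against -0.0031 over all genes. After Benjamini-Hochberg adjustment over all probes of the limma model, 0.597% of all genes were called, 0.418% lower and 0.179% higher. Before adjustment, 5 of the 9 enzymes had p under 0.05 and were lower, where 9.37% of all genes did. These counts and the median are described only, since the enzymes were chosen with earlier results of these arrays known.

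**Figure D1:**
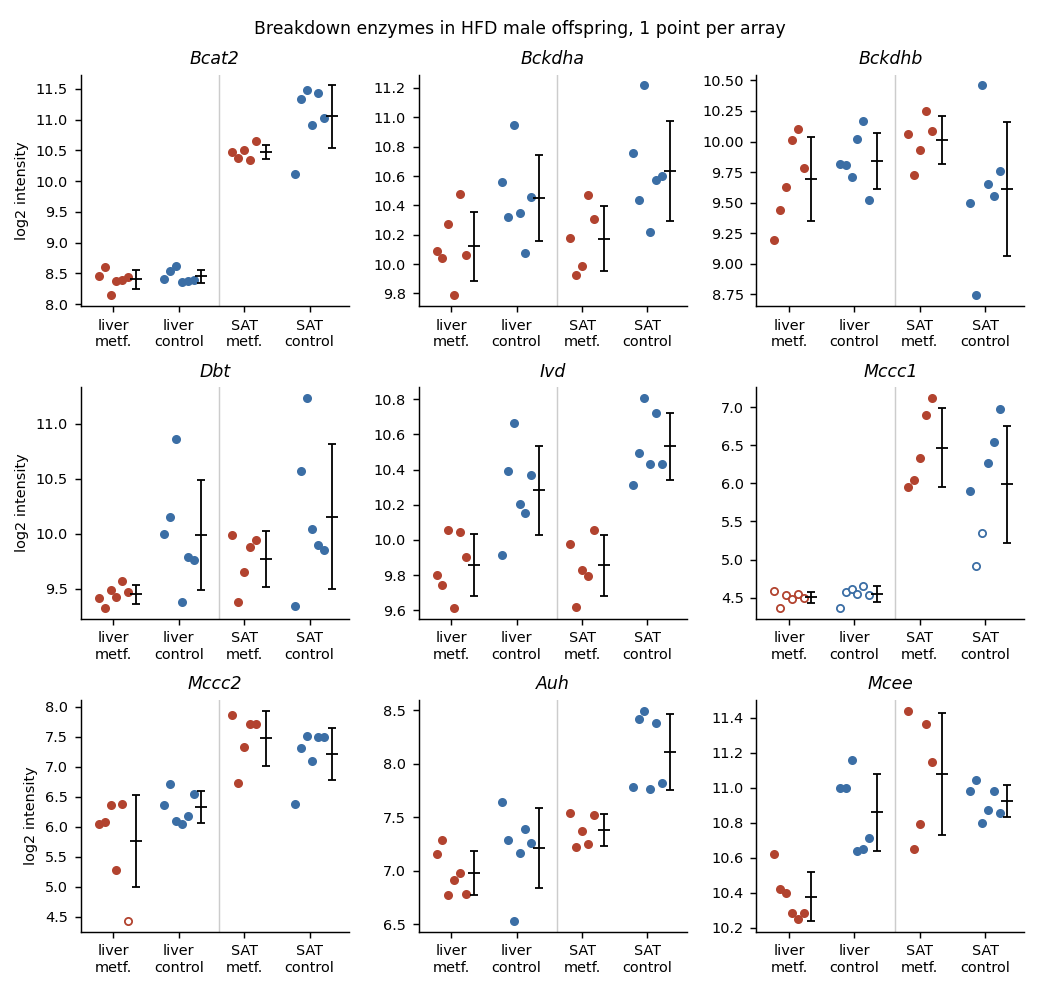
Log2 intensity of the 9 measured enzymes on each array of HFD male offspring, with metformin in red and control in blue, for liver on the left and SAT on the right of each panel. Open points were not detected, and black bars are the mean and SD of 6 metformin and 6 control livers and 5 metformin and 6 control SAT arrays. Mcee separates the livers, and Ivd and Auh separate the SAT arrays.

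Bcat2 encodes the mitochondrial aminotransferase of the first step. Its level ran from 8.14 over a median of 8.41 to 8.61 in metformin livers, and from 8.36 over 8.40 to 8.62 in control livers. The ranges nearly coincided, and the log2 difference was -0.05 ± 0.10 (SE, adjusted p = 0.837), with a 95% interval of -0.25 to 0.15.

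The dehydrogenase complex is built of the E1 subunits Bckdha and Bckdhb and the E2 transacylase core Dbt. Dbt lay between 9.32 and 9.57 with a median of 9.45 in metformin livers, and between 9.37 and 10.86 with a median of 9.89 in control livers. Control livers were spread far more widely (SD 0.503, against 0.0849 in metformin livers), and the control liver 1T-1 was the highest. The log2 difference of Dbt was -0.54 ± 0.18 (adjusted p = 0.129). A second probe of Dbt was not detected on any HFD liver array and gives no separate reading there. Bckdha ranged from 9.79 over a median of 10.07 to 10.48 in metformin livers and from 10.08 over 10.40 to 10.95 in control livers. The groups overlapped, with a log2 difference of -0.33 ± 0.13 (adjusted p = 0.180). Bckdhb differed by -0.15 ± 0.17 (adjusted p = 0.687).

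Of the leucine branch, Ivd encodes isovaleryl-CoA dehydrogenase, the first enzyme after the complex. It lay between 9.61 and 10.06 with a median of 9.85 in metformin livers and between 9.91 and 10.66 with a median of 10.29 in control livers. Only the lowest control liver, 1R-1 at 9.91, reached into the metformin range. The log2 difference of Ivd was -0.42 ± 0.11 (adjusted p = 0.0697). Mccc1 and Mccc2 encode the subunits of methylcrotonyl-CoA carboxylase, which follows. Mccc2 had the largest difference of the 9, -0.57 ± 0.24 (adjusted p = 0.217), and it came from a few arrays. The metformin liver 3R-6, the array with the lowest share of detected probes (30.97%), had 4.42 and was not detected there, 3R-2 had 5.28, and the other metformin livers had 6.04 to 6.37, against 6.04 to 6.71 in control livers. Without 3R-6 the difference was -0.30. Mccc1 was not detected on any of the 12 HFD livers. Its difference of -0.04, counted among the 9 below 0, therefore has no order. Auh, the methylglutaconyl-CoA hydratase of the same branch, differed by -0.23 ± 0.15 (adjusted p = 0.459).

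Mcee had 10.62, 10.42, 10.40, 10.28, 10.25 and 10.28 in the metformin livers 10K-1, 10K-2, 3R-1, 3R-2, 3R-5 and 3R-6. In the control livers it had 11 in both 1R-1 and 1R-4, and 11.16, 10.64, 10.65 and 10.71 in 1T-1, 1T-2, 1T-3 and 1T-4. The highest metformin liver lay just under the lowest control liver, so the groups did not overlap, which held in this direction for 0.617% of all genes. Mcee averaged 10.38 ± 0.14 in metformin livers and 10.86 ± 0.22 in control livers (SD, n = 6 each), a log2 difference of -0.48 ± 0.10 (adjusted p = 0.0354). With the animal code as a random block the adjusted p was 0.041. The call was lost in the 12 HFD livers alone (adjusted p = 0.117), with array weights (0.115) and without code 1R (0.128). Without code 3R the difference was -0.34 and the adjusted p 0.549. Without 3R-6 and 1R-4, the livers with the lowest shares of detected probes, the adjusted p was 0.0933. Median centring also lost the call (0.849, difference -0.94, or -0.71 relative to the shift of all genes). It was also lost when the controls 1R-1, 1R-4 or 1T-1 or the metformin livers 3R-1, 3R-2, 3R-5 or 3R-6 were left out one at a time (adjusted p = 0.0705, 0.0614, 0.0535, 0.0603, 0.0884, 0.0553 and 0.0537), while the difference stayed between -0.53 and -0.42 in all 12 such fits.

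The bases before the annotated starts of Mcee, the enzyme that passed the test, and Mccc2, whose difference rested largely on the liver 3R-6, are given for their letters. RefSeq windows of GRCm38.p6 matched 9 of the 10 genes in 11 windows, and Dbt is named only. Capitals mark the letters searched on both strands, and 4 motifs were searched. The first is CCAAT. The next, called the GC box, is GGGCGG. The palindromic E-box spelled CACGTG followed, and the nuclear receptor site spelled AAGGTCA came last. The 250 bases before Mcee lie at chr7:64392372-64392621 (plus strand), and those before Mccc2 at chr13:100015640-100015889 (minus strand).
Mcee: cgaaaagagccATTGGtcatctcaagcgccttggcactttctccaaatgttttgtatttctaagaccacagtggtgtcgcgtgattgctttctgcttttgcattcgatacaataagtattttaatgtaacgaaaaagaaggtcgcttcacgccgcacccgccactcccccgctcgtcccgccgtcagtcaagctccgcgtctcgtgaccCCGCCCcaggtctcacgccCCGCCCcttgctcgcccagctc
Mccc2: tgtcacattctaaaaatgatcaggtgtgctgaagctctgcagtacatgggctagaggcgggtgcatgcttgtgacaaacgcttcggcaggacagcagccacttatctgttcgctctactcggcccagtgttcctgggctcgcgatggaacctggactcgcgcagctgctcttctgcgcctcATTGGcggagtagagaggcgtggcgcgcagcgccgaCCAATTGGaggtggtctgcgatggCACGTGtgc
Mcee held the GC box at 2 places and the first motif at 1. Mccc2 held the first motif at 3 places, some of them overlapping on opposite strands, and the E-box at 1. The first motif stood in 5 of the 11 windows of these enzymes and in 33.8% of all 32851 windows of this length. The GC box stood in 5 of the 11 and in 32.7% of all, the E-box in 1 and in 6.02% of all, and the nuclear receptor site in 0 and in 4.08% of all. A match describes the letters and no site.

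Other genes of the pathway were also followed in HFD livers. Of 25 further transporters, enzymes and regulators, 23 were on the array and 19 were measured in liver. Of these 19, 16 had a log2 difference below 0, with a median of -0.21, and 1 passed the test. Of all genes, 50.7% had a difference below 0 and 0.597% passed. Pcca, a subunit of the propionyl-CoA carboxylase that acts just before Mcee, averaged 8.56 ± 0.19 in metformin livers and 8.99 ± 0.14 in control livers (SD, n = 6 each). The log2 difference was -0.44 ± 0.10 (adjusted p = 0.0446) with no overlap, which held in this direction for 0.617% of all genes. Like that of Mcee, this call was lost in several refits. The adjusted p was 0.0423 to 0.121 when 1 array was left out and 0.0508 with the animal code as a random block. It was 0.849 with median centring (difference -0.75, or -0.53 relative to the shift of all genes) and 0.392 without code 3R. In the 12 HFD livers alone and without code 1R it was 0.126. Pcca passed in 6 of 16 other settings and in 5 of 12 fits without 1 array. Echs1, an enoyl-CoA hydratase of the valine branch, differed by -0.30 ± 0.09 (adjusted p = 0.112), and Acad8, isobutyryl-CoA dehydrogenase, by -0.52 ± 0.17 (adjusted p = 0.121). The amino acid transporter Slc43a2 differed the other way, by 0.56 ± 0.23 (adjusted p = 0.201).

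Markers of blood cells differed beside these values, some higher and some lower. The mean over 8 neutrophil genes was 11.27 to 11.43 in metformin livers and 10.77 to 11.19 in control livers, without overlap. All 8 of these genes had a positive difference and 2 passed the test, with a median of 0.34, where 0.179% of all genes were called higher. The 5 erythroid genes measured in liver were all higher, with none past the test and a median of 0.31. The mean over the list, at 9.88 to 10.20 in metformin livers and 9.35 to 10.11 in control livers, overlapped. The 2 B-cell genes measured were both lower, with none past the test and a median of -0.05. Their list mean, at 5.35 to 5.93 in metformin livers and 5.68 to 6.08 in control livers, overlapped too. Of 7 measured hepatocyte genes, 5 were lower, with 1 past the test and a median of -0.05, and the list mean was 11.37 to 11.67 in metformin livers and 11.55 to 11.96 in control livers. The part of these cells in the enzyme values was not tested.

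In SAT of the same animals no breakdown enzyme passed the test, and neither did any of the 9360 genes measured (0% called by limma). Ivd and Auh of the leucine branch had no overlap between the groups, with every metformin array under every control array, which held in this direction for 1.86% of all genes. Before adjustment 4 of the 9 enzymes had p under 0.05 and were lower, where 7.45% of all genes did, and 5 of the 9 had a difference below 0, where 46.1% of all genes did. The median over the 9 was -0.39 against 0.03 over all genes, and it was -0.02 without the dimmest SAT controls, 1R-4 and 1T-1. The 9 include Mccc1, which entered through the metformin arrays alone. These counts and the median are described only, since the enzymes were chosen with earlier results of these arrays known.

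Ivd had 9.98, 9.62, 9.83, 9.80 and 10.06 in the metformin SAT arrays 10K-2, 3R-1, 3R-2, 3R-5 and 3R-6. In control SAT it ran from 10.31 over a median of 10.46 to 10.81. The log2 difference was -0.68 ± 0.13 (adjusted p = 0.144). Auh had 7.54, 7.22, 7.37, 7.25 and 7.52 in metformin SAT, and 7.77 over a median of 8.10 to 8.50 in control SAT. Control SAT fell into a higher trio, 1R-4, 1T-1 and 1T-3, and a lower trio at 7.77 to 7.82. Its difference was -0.73 ± 0.17 (adjusted p = 0.144).

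Bcat2, the aminotransferase, had 10.47, 10.38, 10.51, 10.35 and 10.65 in the same metformin SAT arrays. In the control SAT arrays 1R-1, 1R-4, 1T-1, 1T-2, 1T-3 and 1T-4 it had 10.12, 11.34, 11.49, 10.91, 11.43 and 11.03. The control 1R-1 lay below all metformin arrays and the other controls lay above them. The difference was -0.58 ± 0.22 (adjusted p = 0.244). Bckdha ran between 9.93 and 10.47 in metformin SAT and between 10.22 and 11.22 in control SAT, with a difference of -0.46 ± 0.18 (adjusted p = 0.252).

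The other enzymes of SAT showed no common direction. Dbt differed by -0.39 ± 0.28 (adjusted p = 0.484), with the control 1T-1 at 11.24 above all others. Bckdhb differed by 0.40 ± 0.24 (adjusted p = 0.406), Mccc2 by 0.26 ± 0.25 (adjusted p = 0.599) and Mcee by 0.16 ± 0.16 (adjusted p = 0.613). Mccc1 was detected on 5 of 5 metformin and 4 of 6 control SAT arrays, with means of 6.47 and 5.99. It entered the comparison through the metformin arrays alone, so no p is given. Mcee, which fell in the livers of these animals, spread from 10.65 to 11.44 in metformin SAT around the narrow control range of 10.80 to 11.04.

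**Figure D2:**
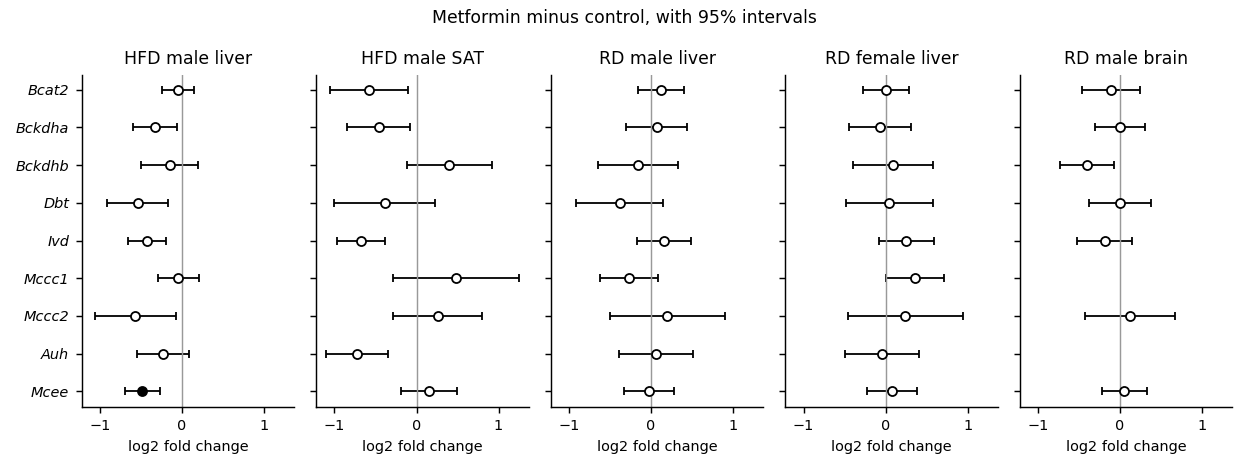
Log2 fold change of each measured enzyme, metformin minus control, with its 95% interval from limma, in 5 comparisons. The filled point passed an adjusted p of 0.05, which only Mcee in HFD liver did. Mccc1 was not detected in HFD liver and entered HFD SAT through the metformin arrays alone, so its points and intervals in these panels are drawn but not read as results. With arrays centred on their medians in place of quantile normalization, Bcat2, Bckdha, Dbt and Ivd of HFD SAT and Mccc1 of RD female liver take the opposite sign, and relative to the shift of all genes by 0.55 in SAT and -0.47 in RD female liver they keep theirs.

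With median centring of each array, the median difference of all SAT genes moved to 0.55, and the values of Bcat2, Bckdha, Dbt and Ivd became 0.15, 0.27, 0.32 and 0.06. Relative to that shift they stayed below 0, at -0.40, -0.28, -0.22 and -0.49, and Auh stood at -0.64. When all 41 arrays shared 1 estimate of the spread, Bcat2, Bckdha, Ivd and Auh passed the test in SAT (adjusted p = 0.0186, 0.0483, 0.000753 and 0.00535) among 841 of 12388 genes (6.79%).

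Other tissue in the SAT samples moved with the groups. The mean over 11 skeletal muscle genes was 11.53 to 12.65 in metformin SAT. In control SAT it was 12.66, 6.78, 9.38, 12.27, 8.59 and 12.29 in 1R-1, 1R-4, 1T-1, 1T-2, 1T-3 and 1T-4. All 11 muscle genes were higher with metformin, with none past the test and a median difference of 2.02. The controls with little muscle RNA, 1R-4, 1T-1 and 1T-3, were those with the highest Bcat2, Ivd and Auh. The mean over 6 brown fat genes was 9.59 to 10.66 in metformin SAT and 7.94 to 9.96 in control SAT, with 4 of 4 tested genes higher, none past the test and a median of 1.43. The mean over 8 white adipocyte genes was 10.998 to 11.29 in metformin SAT and 10.57 to 11.56 in control SAT, with a median difference of -0.05. Their part in the enzyme values was not tested.

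**Figure D3:**
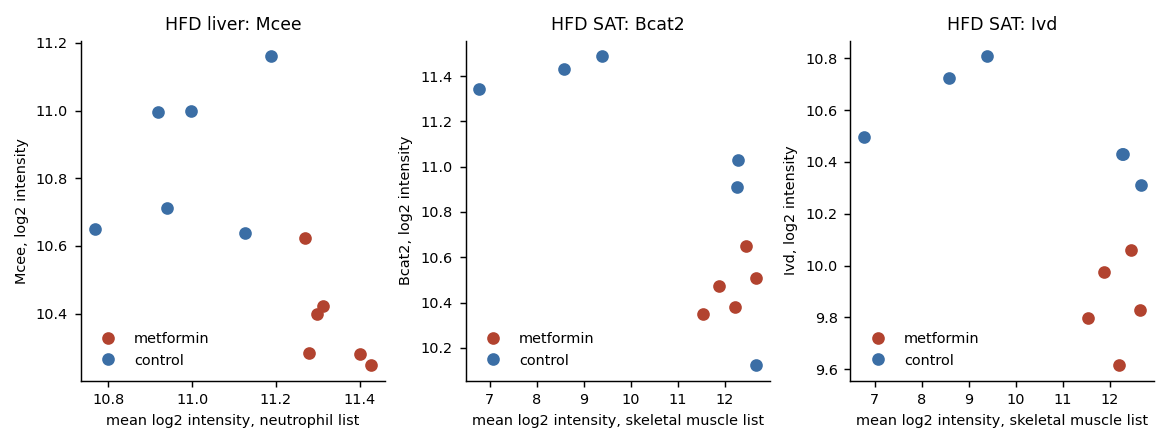
Log2 intensity of an enzyme against the mean log2 intensity of a marker list, 1 point per array of HFD male offspring, with metformin in red and control in blue. Left, Mcee against 8 neutrophil genes in 12 livers. Middle and right, Bcat2 and Ivd against 11 skeletal muscle genes in 11 SAT arrays, where the 3 controls with little muscle RNA hold the highest enzyme values.

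Of the 25 further pathway genes, 18 were measured in SAT and none passed the test. Dld, the E3 subunit that the complex shares with other dehydrogenases, had the smallest p, with 7.97 ± 0.51 in 5 metformin and 7.07 ± 0.45 in 6 control arrays (SD) and a difference of 0.89 ± 0.26 (adjusted p = 0.181). The transporter Slc43a1 averaged 6.13 ± 0.29 in metformin SAT and 7.77 ± 1.34 in control SAT, a difference of -1.64 ± 0.53 (adjusted p = 0.197). Its groups did not overlap, as was so in this direction for 1.86% of all genes. Ppm1k, the phosphatase that activates the dehydrogenase complex, differed by -0.73 ± 0.26 (adjusted p = 0.226). In the limma fit of all 41 arrays, which called Bcat2, Bckdha, Ivd and Auh lower, Dld was called higher (adjusted p = 0.0107). The same fit called Slc43a1 and Ppm1k lower (adjusted p = 0.00291 and 0.0410), among 841 of 12388 genes (6.79%). With array weights Dld and Slc43a1 passed (adjusted p = 0.0219 and 0.0190), among 598 of 9360 genes (6.39%). Hibadh, a dehydrogenase of the valine branch, differed by -0.26 ± 0.12 (adjusted p = 0.303), and by 0.48 with median centring, or -0.06 relative to the shift of all genes.

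Whether metformin acted differently in SAT and liver was tested in 1 model of the 23 HFD arrays. No enzyme passed, and 0% of all genes did. Mcee had the smallest p, with a difference of effect, SAT minus liver, of 0.64 ± 0.19 (adjusted p = 0.135). Bcat2 followed at -0.53 ± 0.24 (adjusted p = 0.284). These signs were opposite, and neither difference between tissues passed after adjustment in this model. The model did not pair the tissues of an animal. With the animal as a random effect in limma, Mcee had an adjusted p of 0.0505 and 208 genes were called. With the animal as a fixed effect, Mcee had 0.0983 and 0 genes were called. Mcee passed when all 41 arrays shared 1 model (adjusted p = 0.0344), among 258 genes called.

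In the offspring of RD dams no enzyme passed the test in any tissue. The share of all genes called was 0.00995% in male livers, 0% in female livers and 0.00935% in male brains. The log2 differences of the 9 enzymes lay between -0.38 and 0.20 in male livers and between -0.07 and 0.36 in female livers, with medians of 0.06 and 0.08. Mccc1 had the smallest p in female livers, with 6.22, 6.27 and 6.45 in metformin and 5.97, 5.99 and 5.91 in control females (difference 0.36 ± 0.17, adjusted p = 1.00). With median centring, which moved all genes by -0.47, it took -0.02, or 0.44 relative to that shift. Its groups did not overlap, as was so in this direction for 3 of the 9 enzymes and for 4.81% of all genes. In brain, Bckdhb had 7.32, 7.54 and 7.73 in metformin males and 8.02, 7.76 and 8.01 in control males (difference -0.40 ± 0.15, adjusted p = 1.00), without overlap, as was so in this direction for 3.77% of all genes. The other 6 enzymes measured in brain had p above 0.05.

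Whether the effect of metformin in male livers differed between the HFD and RD studies was tested directly. No enzyme passed, where 0.139% of all genes did. The difference of effect, HFD minus RD, was -0.58 ± 0.20 for Ivd (adjusted p = 0.187) and -0.46 ± 0.18 for Mcee (adjusted p = 0.240), and the other 7 enzymes had p above 0.05. In RD male livers Mcee had 11.01, 10.81 and 10.84 with metformin and 11.05, 10.77 and 10.90 in controls, a difference of -0.02 with a 95% interval of -0.32 to 0.28. Diet and study go together in these arrays and cannot be told apart.

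**Figure D4:**
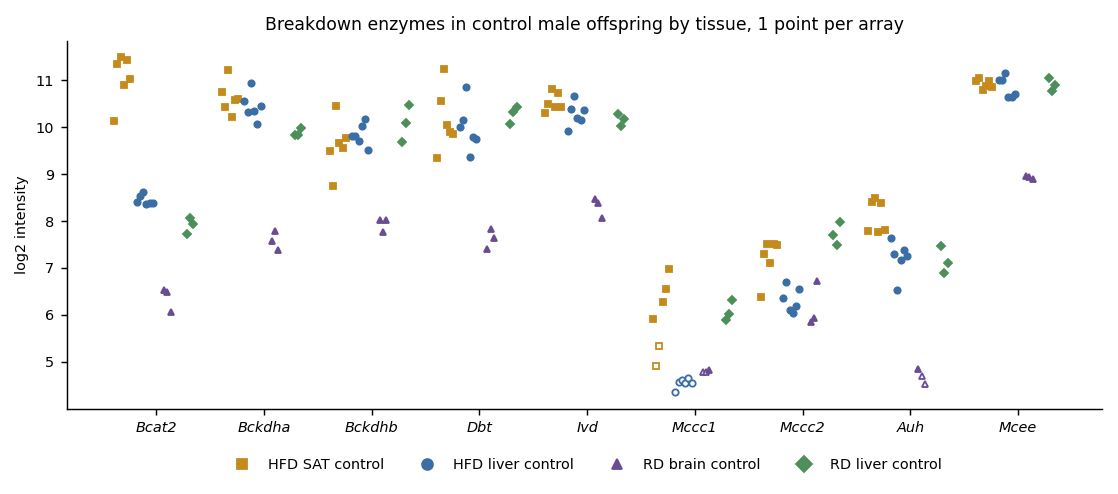
Log2 intensity of each measured enzyme in control male offspring, 1 point per array, for SAT and liver of the HFD study (6 arrays each) and brain and liver of the RD study (3 arrays each). Open points were not detected. Bcat2 is higher in SAT than in liver, and the 7 enzymes measured in brain are lower there than in liver.

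Levels also differed between tissues. In HFD controls, 3 of the 8 enzymes detected in both tissues were higher in SAT than in liver and none was lower, where 37.7% of all genes were called higher and 26.3% lower. Bcat2 differed most, with 10.12 to 11.49 in SAT and 8.36 to 8.62 in liver, a difference of 2.61 ± 0.16 (adjusted p = 1.22e-12), or 6.09-fold. Auh was higher by 0.90 ± 0.17 (adjusted p = 6.51e-05; 0.87 and 0.0675 with median centring) and Mccc2 by 0.89 ± 0.28 (adjusted p = 0.00826). Without the animals of code 1T, Mccc2 differed by 0.31 (adjusted p = 0.699). Mccc1 was detected on 4 of 6 SAT arrays and on none of the livers. With each liver set at its lowest detected intensity, the mean of Mccc1 was 1.81-fold higher in SAT with the processing used. SAT arrays without detection kept their own values. Over the other settings the log2 difference, without that limit, ran from 0.31 to 1.88. Mccc1 entered the comparison through SAT alone, so it is not counted and no p is given. Bckdha, Bckdhb, Dbt, Ivd and Mcee differed by -0.23 to 0.25, with adjusted p of 0.0921 to 0.702. The labels differ on whether RNA of SAT was extracted with another kit than that of liver. If it was, kit and tissue cannot be told apart.

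Among the other pathway genes in these controls, 10 of 18 were higher in SAT and 3 were lower. Of all genes, 37.7% were called higher and 26.3% lower. The cytosolic aminotransferase Bcat1 was higher by 2.67 (adjusted p = 2.84e-12), and Bckdk, the kinase that inhibits the complex, by 1.33 (adjusted p = 1.16e-07). Ppm1k, its opposing phosphatase, was lower by 2.13 in SAT than in liver on the log2 scale (adjusted p = 3.44e-08). These 3 genes were named after their values were seen.

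In RD controls the 7 enzymes measured in brain were all lower there than in liver, without overlap, where 37% of all genes were called lower, 40.3% higher, and 38.3% had brain below liver on every array. Their log2 differences ran from -2.65 for Dbt to -1.56 for Bcat2 and Mccc2, with adjusted p of 1.73e-05 or less. Mcee had 8.96, 8.93 and 8.91 in brain and 11.05, 10.77 and 10.90 in liver. Bcat2 had 6.53, 6.48 and 6.05 in brain and 7.73, 8.07 and 7.95 in liver. Mccc1 and Auh were each detected on 1 of 3 control brains and on all 3 control livers, and are not counted. Bcat1 went the other way, with a difference of 4.70 (adjusted p = 3.34e-10). The size of these differences depended on the scaling. With tissues normalized separately they were -1.40 for Dbt, -1.03 for Bckdha, -0.88 for Bckdhb, -0.78 for Mcee and -0.58 for Ivd, and the calls of Bcat2 and Mccc2 were lost (-0.27 and -0.29, adjusted p = 0.134 and 0.242).

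Control livers of males also differed between the HFD and RD studies, in a comparison added after the values were seen. Of the 8 enzymes detected in livers of both studies, 2 were called higher and 1 lower, where 20.4% of all genes were called higher and 16.9% lower. Mccc1 was detected on none of the 12 HFD livers and on all 12 RD livers. With each HFD liver set at its lowest detected intensity, control RD males were 1.91-fold higher with the processing used. Over the other settings the log2 difference, HFD minus RD and without that limit, ran from -1.60 to -0.32. Mccc1 entered through the RD livers alone, so it is not counted and no p is given. Its partner Mccc2 had 6.04 to 6.71 in HFD control livers and 7.70, 7.49 and 7.97 in RD control livers, a difference of -1.39 ± 0.29 (adjusted p = 0.000794). Bcat2 was higher in HFD livers by 0.53 ± 0.12 (adjusted p = 0.00131) and Bckdha by 0.57 ± 0.16 (adjusted p = 0.00735), but with median centring, which moved all genes by -0.57, they took the values -0.22 and -0.17 (0.35 and 0.40 relative to that shift) and were not called.

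The genes most like 4 of the enzymes over all 41 arrays were sought among 12387 genes by Pearson's r, as a description of arrays that share tissue, study and normalization. Mcee was closest to Etfa (r = 0.967), a subunit of the flavoprotein that takes electrons from mitochondrial acyl-CoA dehydrogenases, followed by Hint3 (0.966) and Nudt7 (0.965). Ivd was closest to Psen2 (0.947), Gstk1 and Iah1 (0.944 each). Bcat2 was closest to Pnpla2 (0.986), the triglyceride lipase of fat cells, followed by Gpr108 (0.979) and Mknk2 (0.977). Bckdha was closest to Hint2 (0.980), Sun2 (0.979) and Pttg1ip (0.972).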

How the data were processed

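The authors deposited a table of bead intensity, not normalized, for 45281 probes on 41 arrays, and beside each intensity a detection p-value whose calculation is not given in the sources used here. The authors also deposited log2 values made with lumi (version not given) by variance stabilization and robust spline normalization, which served as an alternative. A SAT array of a metformin male that was discarded in the study is not analysed here.

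Intensities were background corrected with the detection p-values, offset by 16 and quantile normalized over 41 arrays (neqc, limma 3.58.1, R 4.3.3). A probe was kept where all arrays of some group in the model had a detection p under 0.05, which left 17547 probes for 24 liver arrays, 15848 for 11 SAT arrays and 19182 for 6 brain arrays. SAT and liver were compared in 23 HFD arrays, and brain and liver in 12 RD arrays of males. Group means were fitted with limma (lmFit, eBayes), p-values were adjusted by Benjamini-Hochberg over all kept probes, and the threshold was 0.05. A gene was given by its kept probe with the highest mean over all arrays. The steps were also run on simulated data with independent noise for each probe and array. Such data hold no shared litters and no uneven tissue content, so that run does not test for these. Probes with several symbols (18) or none (10378) were not named.

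The enzymes and gene lists were chosen with earlier results of these data known. All 10 enzymes were described. Of the other pathway genes, those past the threshold and the 4 with the smallest p were named in the metformin comparisons of HFD liver and HFD SAT, and any others after their values were seen. Samples carry separate animal labels, but litters are not given. SAT or brain and liver of 1 animal were paired by the label, and their deviations from the group means correlated at 0.0325 to 0.349 over 11 HFD pairs and at -0.0387 to 0.334 over 6 RD pairs. Alternatives covered the normalization, offset, probe filter, arrays in the model, array weights, blocks for animal and animal code, and leaving out arrays or codes. The number of arrays limits the precision.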

Additional observations from a re-analysis of the deposited data

Results flagged for a closer look

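Mccc2, a subunit of methylcrotonyl-CoA carboxylase, had 6.38 log2 intensity in the HFD control SAT array 1R-1. The nearest of the other control SAT arrays had 7.10 and the highest had 7.52, so the gap took up most of the range of the group. Such a gap was looked for in 36 sets of arrays (9 enzymes in 4 HFD groups), and chance gives about 1 in 20.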

How the results depend on the processing

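Of 240 counts of called enzymes under alternatives, 219 stayed within 1.5 times the count reported and 21 did not. Of 1730 values of single genes, 1637 kept their direction and side of the threshold, 38 took the other sign, 34 lost the call and 21 gained one. In HFD liver, where 1 enzyme was called, 2 were called with the authors' log2 values, an offset of 50 or probes detected on every array (Mcee and Ivd). These settings called 132, 126 and 107 of all genes, against 60 in the main fit. The count was 0 with median centring, array weights, the 12 HFD livers alone, without code 1R and without code 3R. It was also 0 without 3R-6 and 1R-4, the livers with the lowest shares of detected probes, an alternative added after seeing the data. It was 0 to 1 when 1 array was left out. In HFD SAT, where none was called, 4 were called with all 41 arrays in 1 model and 2 with array weights. Those fits called 841 of 12388 genes (6.79%) and 598 of 9360 genes (6.39%). The tissue difference of the metformin effect gave 1 call (Mcee) with all 41 arrays in 1 model, among 258 genes called. SAT against liver in controls gave 4 calls with Mccc1, and 2 with probes detected on every array (4068 genes called). It gave 4 to 5 when 1 array was left out. HFD against RD control livers gave 4 calls with Mccc1, 2 with median centring (2344 genes called) and 2 with probes detected on every array (3238 genes). That comparison gave 4 to 5 when 1 array was left out. The replicate block for animals, fixed or random, gave 0 and 0 enzymes for the tissue difference of the effect (0 and 208 genes). For SAT against liver it gave 4 and 4 (6726 and 6808 genes). Brain against liver gave 9 and 9 (9337 and 9407 genes). The counts between tissues include Mccc1 and Auh.

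Values that took the other sign were as follows, and the cause was not tested beyond the shift of all genes under median centring. With median centring, HFD SAT gave 0.15 for Bcat2, 0.27 for Bckdha, 0.32 for Dbt, 0.061 for Ivd and 0.48 for Hibadh, and RD female liver gave -0.022 for Mccc1. The tissue difference of effect gave 0.50 for Bcat2, 1.03 for Bckdha, 0.88 for Ivd and 0.33 for Auh, where all genes moved by 0.76 and the values relative to that were -0.26, 0.27, 0.12 and -0.43. HFD against RD control livers gave -0.22 for Bcat2, -0.17 for Bckdha, -0.65 for Ivd and -0.66 for Auh, and SAT against liver gave -0.14 for Mcee (-0.13 with normalization within each tissue). Slc43a2 in HFD liver was at -0.13 with no filter, -0.086 without code 1T and -0.21 without code 3R. In HFD liver, Mccc1 was at 0.034 without code 1T, Bckdhb at 0.040 without 10K, and Bcat2 at 0.086 and Auh at 0.013 without 3R, and Mccc1 in HFD SAT was at -0.042 without 3R. SAT against liver gave 0.0023 for Bckdhb without 1R. For Dbt it gave -0.12 without 1T and -0.17 without the HFD arrays of lowest detected share. HFD against RD control livers gave -0.072 for Auh without 1R, and -0.0054 for Ivd and 0.091 for Mcee without 1T. When 1 array was left out, values ran from -0.19 to 0.67 for Slc43a2 and from -0.090 to 0.0028 for Bcat2 in HFD liver, from -0.023 to 0.37 for Dbt in the tissue difference of effect, from -0.048 to 0.34 for Dbt in SAT against liver, and from -0.11 to 0.024 for Mcee and from -0.075 to 0.21 for Auh in HFD against RD control livers. Genes near background, such as Mccc1 in HFD liver, have no order there.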
